A study of Homo sapiens with 2 samples.

Results

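The WNT ligands described here are 8 of the 33538 genes counted in 2 libraries of single cells: WNT3, WNT3A, WNT4, WNT5A, WNT5B, WNT6, WNT8A and WNT11. They were taken by gene symbol, and their levels, their detection at equal depth and the cells that held them were measured in each library. One library, labelled WT, came from H1 cells, an established human embryonic stem cell (hESC) line. The other, labelled GATA3 KO, came from the clone KO-GATA3-06, 1 monoclonal line made with Cas9 directed at GATA3, a zinc-finger transcription factor. This clone was derived from an H1 line with a doxycycline-inducible Cas9 cassette at the AAVS1 locus, so the effects of genotype, clone and cassette cannot be told apart. The 2 sets of cells are called WT and GATA3 KO cells after these labels. Both cultures had received bone morphogenetic protein 4 (BMP4) at 50 ng/ml for 48 h in mTeSR1 medium. A protocol text of the WT library gives 1 h, but its title and recorded duration give 48 h, which was used. No library of cells without BMP4 was analysed here, so the values below describe the cells after BMP4 and not the response to it.

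WNT proteins are secreted, lipid-modified signals. PORCN attaches the lipid, WLS carries the ligand to the cell surface, and Frizzled receptors with the co-receptors LRP5 and LRP6 bind it, after which β-catenin is spared from destruction and acts in the nucleus with LEF/TCF factors. WNT3, WNT3A and WNT8A are known mainly for this β-catenin route, and in the mouse Wnt3 is needed to form the primitive streak, the site where mesoderm and endoderm arise. WNT5A and WNT11 act largely without β-catenin, through receptors such as ROR2 and RYK, and guide cell movement, and WNT5B is the close relative of WNT5A. WNT4 is known from the kidney and the gonad, and WNT6 from ectoderm and other epithelia. MIXL1 is a homeobox gene of the primitive streak, TFAP2A a transcription factor of surface ectoderm, amnion and trophectoderm, and SOX2 a transcription factor of pluripotent cells. These 3 genes were used to describe which cells held a ligand.

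All 8 ligand genes are protein-coding and were placed in the GENCODE annotation of GRCh38. WNT3 lies on chromosome 17 (46762506 to 46833154, minus strand), WNT6 on chromosome 2 (218859805 to 218874233, plus strand) and WNT8A on chromosome 5 (138083990 to 138092365, plus strand). WNT5A (chromosome 3, 55465715 to 55490539, minus strand) and WNT5B (chromosome 12, 1529891 to 1647212, plus strand) overlap a counted gene on the other strand, WNT5A-AS1 and FBXL14 respectively. WNT11 (chromosome 11, 76186325 to 76210736, minus strand) likewise overlaps ENSG00000254933. Whether the counting used strand was not given in the sources used here, so reads of these 3 pairs may not be fully separated. WNT3A (228006998 to 228061271, plus strand) and WNT4 (22117313 to 22143969, minus strand) lie on chromosome 1.

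The 250 bases before the RefSeq start of 3 ligands are printed here, because these are the most abundant ligand of each library and the ligand with the largest ratio of WT to GATA3 KO counts among those that reached 1 count per 1000000 counts. The sequences are from RefSeq (GRCh38.p14), run 5′ to 3′ on the strand of the gene, and have each CpG in capitals.

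WNT3 (chr17:46818693-46818942, minus strand): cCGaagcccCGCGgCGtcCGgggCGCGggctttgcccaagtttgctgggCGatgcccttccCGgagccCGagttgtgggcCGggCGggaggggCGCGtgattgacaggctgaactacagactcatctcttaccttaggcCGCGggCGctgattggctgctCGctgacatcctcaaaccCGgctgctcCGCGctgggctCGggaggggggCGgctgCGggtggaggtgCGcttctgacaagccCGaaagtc

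WNT6 (chr2:218859555-218859804, plus strand): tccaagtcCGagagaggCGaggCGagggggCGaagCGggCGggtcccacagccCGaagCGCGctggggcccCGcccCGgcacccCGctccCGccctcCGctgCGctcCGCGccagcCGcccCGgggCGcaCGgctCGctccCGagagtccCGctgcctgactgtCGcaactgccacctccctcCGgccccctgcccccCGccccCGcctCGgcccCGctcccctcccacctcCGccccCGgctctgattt

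WNT8A (chr5:138083783-138084032, plus strand): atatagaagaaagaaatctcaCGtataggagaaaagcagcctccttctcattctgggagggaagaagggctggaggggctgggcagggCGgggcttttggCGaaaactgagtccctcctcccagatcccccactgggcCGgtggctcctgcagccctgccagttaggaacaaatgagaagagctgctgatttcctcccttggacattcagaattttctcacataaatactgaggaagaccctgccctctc

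The upstream windows of WNT3 and WNT6 were rich in CpG and that of WNT8A was not. WNT3 had 26 CpG in 250 bases at 68.8% G and C, WNT6 had 32 at 79.2%, and WNT8A had 4 at 53.2%. The median over 35116 RefSeq promoter windows was 11 CpG and 58% G and C. RefSeq windows were matched for 7 of the 8 ligands, 9 windows in all, and each runs from 250 bases before to 50 bases after a start. The letters searched on both strands were CTTTGA for LEF/TCF, TCACACCT for T-box factors, GTCTAGAC for SMAD, and for GATA factors AGATAA with its variant TGATAA, along with AGATAG with its variant TGATAG. None of these matched in any of the 9 windows, while 12.9% of all windows held the LEF/TCF letters, 0.98% those of T-box factors, 0.202% those of SMAD and 25% those of GATA factors. The absence says only that these letters are not in these windows.

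Each library was a single sample, so there was no replicate, no test was made, and the 95% intervals cover counting error only. Cells with at most 7500 detected genes and at most 25% mitochondrial counts were used, 2519 of 3802 WT cells and 4450 of 6221 GATA3 KO cells, with 99587274 and 175285931 unique molecular identifiers (UMIs, each standing for 1 captured transcript). Their medians of 44415 and 43131.5 UMIs per cell were close. The pluripotency genes were abundant in both libraries, with POU5F1 at 918 and 1480.1 counts per 1000000 UMIs (CPM) in WT and GATA3 KO cells. SOX2 stood at 149.5 and 388.6 CPM and LIN28A at 393.0 and 550.1 CPM. NANOG (75.6 and 55.7 CPM) and DPPA4 (270.4 and 246.8 CPM) were lower in GATA3 KO cells. In contrast, PAX6 and SOX1 of neural ectoderm, DDX4 of germ cells, and DCN and LUM of fibroblasts were each under 0.2 CPM. The other markers of these 3 lists were higher, with OTX2 of neural ectoderm at 11.9 and 29.0 CPM, NANOS3 of germ cells at 1.67 and 1.61 CPM, and COL1A1 of fibroblasts at 15.2 and 29.4 CPM. The summed primitive streak markers stood at 252.8 CPM in WT cells and 12.3 CPM in GATA3 KO cells, so the libraries differ in their content of streak-marked cells or transcripts as well as in label. The summed endoderm markers stood at 18.7 and 0.319 CPM. Those of amnion and trophectoderm stood at 51.7 and 80.3 CPM, although ISL1 (4.65 and 2.72 CPM) and GATA3 among them were lower in GATA3 KO cells. GATA3 itself was counted at 12.7 and 10.9 CPM in WT and GATA3 KO cells within the limits, at 25.2 and 11.2 CPM outside them and at 19.0 and 11.0 CPM over all deposited cells. It was thus lower in GATA3 KO cells in each set but far from absent, so the labels were not checked by its loss, and every direction rests on them. The study reported frameshift edits in both alleles of this clone and no GATA3 protein staining after BMP4. Transcript counts do not measure protein, so the transcript that remained says nothing about that loss.

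The libraries differed in how much WNT ligand transcript they held and in which ligand dominated. The 8 ligands together made up 38.3 CPM (37.1 to 39.5) in WT cells and 19.2 CPM (18.6 to 19.9) in GATA3 KO cells. WNT3 gave 59.2% (57.6 to 60.7) of the 3814 ligand UMIs in WT cells and 25.7% (24.3 to 27.2) of the 3366 in GATA3 KO cells. WNT6 gave 8.21% (7.35 to 9.12) and 39.6% (37.9 to 41.3). WNT3 was thus the leading ligand of WT cells and WNT6 that of GATA3 KO cells. Since UMIs mark transcript ends and do not scale with transcript length, levels of different ligands are compared here as CPM, and any difference in capture between genes was not tested.

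Among the ligands of the β-catenin route, WNT3 was at 22.7 CPM (21.7 to 23.6) in WT cells and 4.94 CPM (4.62 to 5.28) in GATA3 KO cells. The ratio of CPM was 4.59-fold (4.24 to 4.96) in favour of WT, and log2 of the ratio of GATA3 KO to WT after adding 1 CPM to each, the scale used for all log2 ratios below, was -1.99 (-2.09 to -1.89). WNT8A was at 1.52 CPM (1.28 to 1.78) and 0.302 CPM (0.226 to 0.395), 5.01-fold lower (3.64 to 6.99) in GATA3 KO cells. Because its counts are low, 151 and 53 UMIs, its log2 ratio was only -0.95 (-1.10 to -0.79). WNT3A was at 0.623 CPM (0.477 to 0.798) and 0.342 CPM (0.261 to 0.441), from 62 and 60 UMIs. The intervals of the 2 libraries do not meet for any of these 3 ligands, each lower in GATA3 KO cells.

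WNT5A stood at 3.84 CPM (3.46 to 4.24) against 0.936 CPM (0.798 to 1.09), with a log2 ratio of -1.32 (-1.47 to -1.16). WNT5B, its relative, stood at 5.58 CPM (5.13 to 6.07) against 2.73 CPM (2.49 to 2.99), with a log2 ratio of -0.82 (-0.96 to -0.68). Both were lower in GATA3 KO cells, with intervals that do not meet. WNT11, which like WNT5A acts largely without β-catenin, was close to absent in both libraries, with 10 UMIs (0.10 CPM) in WT cells and 5 UMIs (0.0285 CPM) in GATA3 KO cells.

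WNT4 and WNT6 went the other way. WNT4 was at 0.843 CPM (0.673 to 1.04) in WT cells and 2.32 CPM (2.10 to 2.55) in GATA3 KO cells, 2.75-fold higher (2.17 to 3.52), with a log2 ratio of 0.85 (0.67 to 1.02). WNT6 was at 3.14 CPM (2.80 to 3.51) and 7.60 CPM (7.20 to 8.02), 2.42-fold higher (2.14 to 2.75), with a log2 ratio of 1.05 (0.91 to 1.20). This value for WNT6 depends on the limits set on cells. Outside the limits WNT6 was at 6.81 CPM (6.31 to 7.34) in WT cells and 7.40 CPM (6.90 to 7.93) in GATA3 KO cells, and 68.7% of the WNT6 UMIs of the WT library but 37.7% of those in the GATA3 KO library lay in such cells. Over all deposited cells the levels were 4.99 and 7.53 CPM, 1.51-fold higher (1.40 to 1.63) in GATA3 KO cells. The other ligands kept their direction outside the limits, among them WNT3 with 22.9 and 5.49 CPM and WNT4 with 1.01 and 2.67 CPM.

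**Figure D1:**
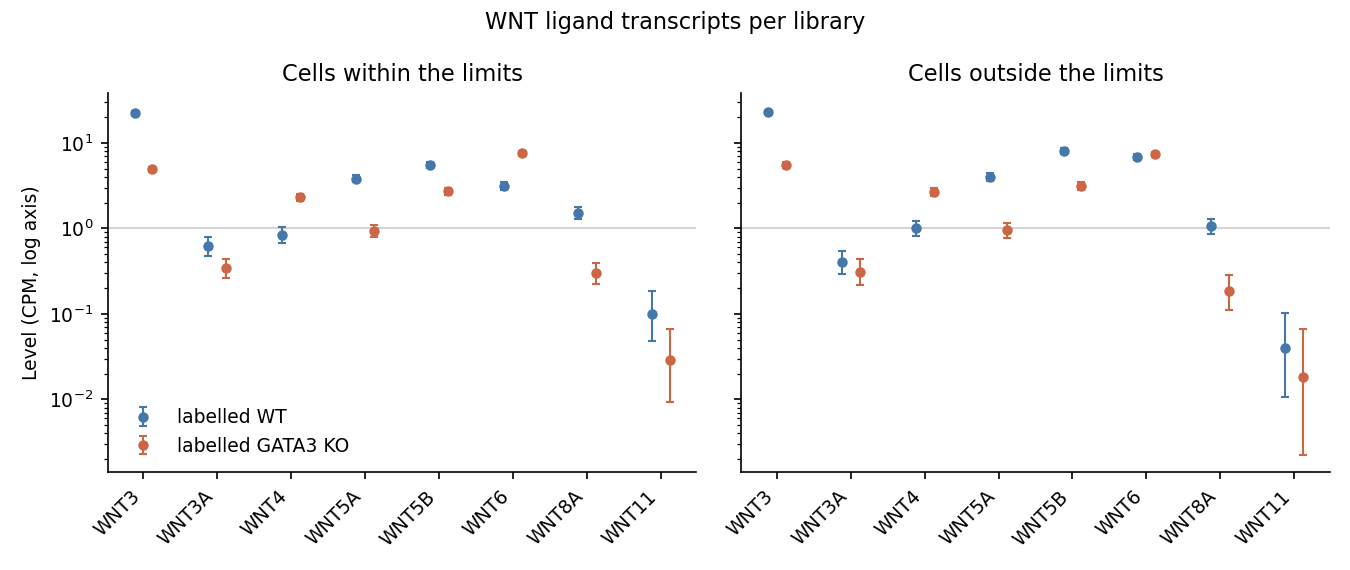
Level of each ligand in CPM (log axis) in cells within the limits (left) and outside them (right), with exact Poisson 95% intervals; blue is WT cells and orange GATA3 KO cells. WNT3 stands highest at 22.7 CPM in WT cells, and the gap in WNT6 seen on the left (3.14 and 7.60 CPM) is small on the right (6.81 and 7.40 CPM).

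In order of level WT cells ran WNT3, WNT5B, WNT5A, WNT6, WNT8A, WNT4, WNT3A and WNT11. Neighbours whose intervals meet in that order were WNT5A with WNT6 and WNT4 with WNT3A. In GATA3 KO cells the order was WNT6, WNT3, WNT5B, WNT4, WNT5A, WNT3A, WNT8A and WNT11, and the intervals of WNT5B with WNT4 and of WNT3A with WNT8A met. Of the 8 ligands, 6 reached 1 CPM in at least 1 library. Of these 6, 2 (WNT3 and WNT5A) were lower by at least 2-fold on the scale with 1 CPM added, where 307 of 13523 genes were (2.27%), and 1 (WNT6) was higher, where 279 were (2.06%). The median log2 ratio was -0.88 over the 6 ligands and 0.07 over all 13523 genes. In bulk sums such as these, fewer cells that hold a ligand and less transcript per cell cannot be told apart, and the single cells were therefore examined next.

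To compare detection at equal depth, each cell was thinned at random to 10000 UMIs, which left 2173 WT cells and 4038 GATA3 KO cells and set aside 346 and 412 shallower ones. At least 1 UMI of any of the 8 ligands was found in 26.0% of WT cells (24.1 to 27.9, 564 cells) and in 13.6% of GATA3 KO cells (12.6 to 14.7, 551 cells), a difference of -12.3 points (-14.5 to -10.2). Unthinned, 61.9% and 33.9% of cells had one, so a cell without a UMI at 10000 UMIs is not shown to lack the ligand. Empty droplets were not analysed here, so these shares may hold UMIs of free RNA, whose part was not tested. The direction was the same at each depth tried.

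WNT3 was found in 17.0% of thinned WT cells (15.5 to 18.7) and 4.31% of thinned GATA3 KO cells (3.70 to 4.98), the widest gap of any ligand. WNT5A was found in 3.18% and 1.16%, WNT5B in 4.14% and 2.50%, and WNT8A in 1.75% and 0.371%. For WNT6 the shares were 2.81% (2.15 to 3.59) and 4.63% (4.0 to 5.33), and for WNT4 0.322% (0.13 to 0.663) and 1.93% (1.53 to 2.40). For each of these 6 ligands the interval of the difference excluded 0. For WNT3A (0.506% and 0.272%) it did not. WNT11 was found in 3 of 2173 WT cells and in 0 of 4038 GATA3 KO cells, which allows up to 0.0743% of cells with a UMI at this depth. Before thinning 5 of these 4038 cells (0.124%) had a WNT11 UMI.

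Most thinned cells with a ligand held UMIs of a single kind. A ligand can be missed at this depth, so this does not show that such cells made only 1 kind. In WT cells 22.2% of cells held 1 of the ligands, 3.54% held 2 and 4 cells held 3, and in GATA3 KO cells 12.2% held 1, 1.34% held 2 and again 4 cells held 3. The amount per cell differed between the ligands. Before thinning, a cell with WNT6 held 2.16 UMIs of it on average in WT cells and 3.59 in GATA3 KO cells, up to 16 and 21 UMIs in 1 cell. For WNT3 the mean was 2.13 and 1.53 UMIs with highest counts of 9 and 7. WNT5A reached 12 UMIs in a WT cell but no more than 2 in any GATA3 KO cell.

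The cells were then sorted by whether a UMI of MIXL1, TFAP2A or SOX2 was present after thinning. MIXL1 was found in 31.7% of WT cells (689 cells) and 2.08% of GATA3 KO cells (84 cells). TFAP2A was found in 11.9% (258 cells) and 18.0% (727 cells), and SOX2 in 54.9% (1192 cells) and 86.8% (3504 cells). Median depth before thinning lay between 44718 and 49016 UMIs in all marker-positive and marker-negative sets, so depth differed little between the sets compared. Of the 24 pairs of a ligand and a marker, 6 in WT cells had a higher share of ligand-bearing cells among marker-positive cells with an interval above 0, and 6 a lower share with an interval below 0. For GATA3 KO cells these numbers were 5 and 5, and the lower pairs numbered 3 at 5000 UMIs. The same counts over all genes were not computed, so these numbers do not set the ligands apart from other genes.

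WNT3 went with MIXL1 in both libraries. In WT cells it was found in 29.0% of MIXL1-positive cells (25.7 to 32.6) and 11.5% of MIXL1-negative cells (9.88 to 13.2), a difference of 17.6 points (13.8 to 21.5). In GATA3 KO cells, 23 of 84 MIXL1-positive cells (27.4%, 18.2 to 38.2) and 3.82% of MIXL1-negative cells (3.24 to 4.46) held WNT3, a difference of 23.6 points (14.4 to 34.4). At this depth the share among MIXL1-positive cells thus differed between the libraries by -1.65 points (-11.5 to 9.68), an interval too wide to show that they are alike. Before thinning, WNT3 was in 75.9% of MIXL1-positive WT cells and 47.6% of MIXL1-positive GATA3 KO cells. Their median depths were then 49016 and 48639.5 UMIs. More MIXL1 went with more WNT3. Among WT cells, the share with WNT3 was 23.3% at 1 MIXL1 UMI, 25.4% at 2 to 3 and 35.7% (30.1 to 41.5) at 4 or more. Among GATA3 KO cells it was 21.3% at 1 MIXL1 UMI (13 of 61 cells), and the bins above hold only 14 and 9 cells, of which 5 and 5 had WNT3.

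WNT8A and WNT5A also went with MIXL1 in WT cells. WNT8A was found in 3.48% of MIXL1-positive and 0.943% of MIXL1-negative cells, a difference of 2.54 points (1.15 to 4.25), and WNT5A in 4.79% and 2.43%, a difference of 2.36 points (0.63 to 4.37). The WNT5A share was 8.04% (5.17 to 11.8) in cells with 4 or more MIXL1 UMIs and 2.07% (0.568 to 5.22) in those with 2 to 3. In GATA3 KO cells 2 of the 84 MIXL1-positive cells held WNT8A, with an interval of the difference that includes 0 (-0.05 to 8.01). Before thinning, WNT8A was in 9.52% of these cells and 1.06% of MIXL1-negative ones. Over the alternatives the difference ran from -0.12 points at 5000 UMIs to 5.15 points with another thinning. These values do not show that WNT8A was unlinked to MIXL1 in GATA3 KO cells. WNT5A was held by 0 of the 84 thinned cells, which allows a share of up to 3.57%.

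WNT6 and WNT5B went with TFAP2A. Of TFAP2A-positive cells 14.3% (10.3 to 19.2) held WNT6 in WT cells and 22.7% (19.7 to 25.9) in GATA3 KO cells, while among TFAP2A-negative cells the shares were 1.25% and 0.664%. Positive cells thus exceeded negative ones by 13.1 points (9.0 to 18.0) and by 22.0 points (19.0 to 25.3). WNT5B was found in 12.4% of TFAP2A-positive and 3.03% of TFAP2A-negative WT cells, and in 7.84% and 1.33% of the same sets of GATA3 KO cells. The WNT6 share was 11.8% at 1 TFAP2A UMI and 19.2% (10.9 to 30.1) at 2 to 3 in WT cells, where only 7 cells had 4 or more. The GATA3 KO shares were 12.7% at 1, 28.1% (22.6 to 34.1) at 2 to 3 and 46.5% (36.5 to 56.7) at 4 or more TFAP2A UMIs. At a matched number of TFAP2A UMIs of 1, the 2 libraries had WNT6 shares within each other's intervals (7.45 to 17.5 and 9.54 to 16.5). At 2 to 3 the intervals met, but the WT share lay below the GATA3 KO interval.

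WNT4 and WNT3 differed less steadily by TFAP2A. Among GATA3 KO cells, WNT4 was found in 4.68% of TFAP2A-positive and 1.33% of TFAP2A-negative cells, a difference of 3.35 points (1.86 to 5.18), but another random thinning gave 0.595 points (-0.52 to 2.07). WNT3 was found in 6.05% and 3.93% of them, a difference of 2.13 points (0.35 to 4.21), which was gone when TFAP2A had to have 2 UMIs (-0.34, -2.27 to 2.36). WNT5A was found in 5.81% of TFAP2A-positive and 2.82% of TFAP2A-negative WT cells, a difference of 2.99 points (0.33 to 6.65), and in 1.10% and 1.18% of the same sets of GATA3 KO cells.

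No count over all genes was made by SOX2 either, so the next numbers describe only these ligands. In each library 5 of the 8 ligands were found less often in SOX2-positive cells with an interval below 0. For the other 3 the interval included 0. Among those 3, WNT5A was found in 1.20% of SOX2-positive and 0.936% of SOX2-negative GATA3 KO cells. In WT cells, 11.7% of SOX2-positive and 23.4% of SOX2-negative cells held WNT3, a difference of -11.7 points (-15.0 to -8.43), and WNT6 was found in 0.419% and 5.71%. In GATA3 KO cells, WNT6 was found in 1.08% of SOX2-positive cells and 27.9% (24.1 to 31.9) of SOX2-negative cells. The second share was close to that of WNT3 in MIXL1-positive cells of that library (27.4%, 18.2 to 38.2). WNT5B was found in 1.20% of SOX2-positive and 11.0% of SOX2-negative GATA3 KO cells. The share with WNT3 in WT cells was 23.4%, 16.4%, 11.9% and 6.54% at 0, 1, 2 to 3 and 4 to 7 SOX2 UMIs. Among GATA3 KO cells it was 6.18%, 7.17%, 6.23% and 2.73%, and 1.03% (0.335 to 2.38) at 8 or more. With 4 to 7 SOX2 UMIs, WNT6 was found in 0 of 321 WT cells and 0 of 1609 GATA3 KO cells, which allows up to 0.935% and 0.186% of cells with a UMI at this depth.

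**Figure D2:**
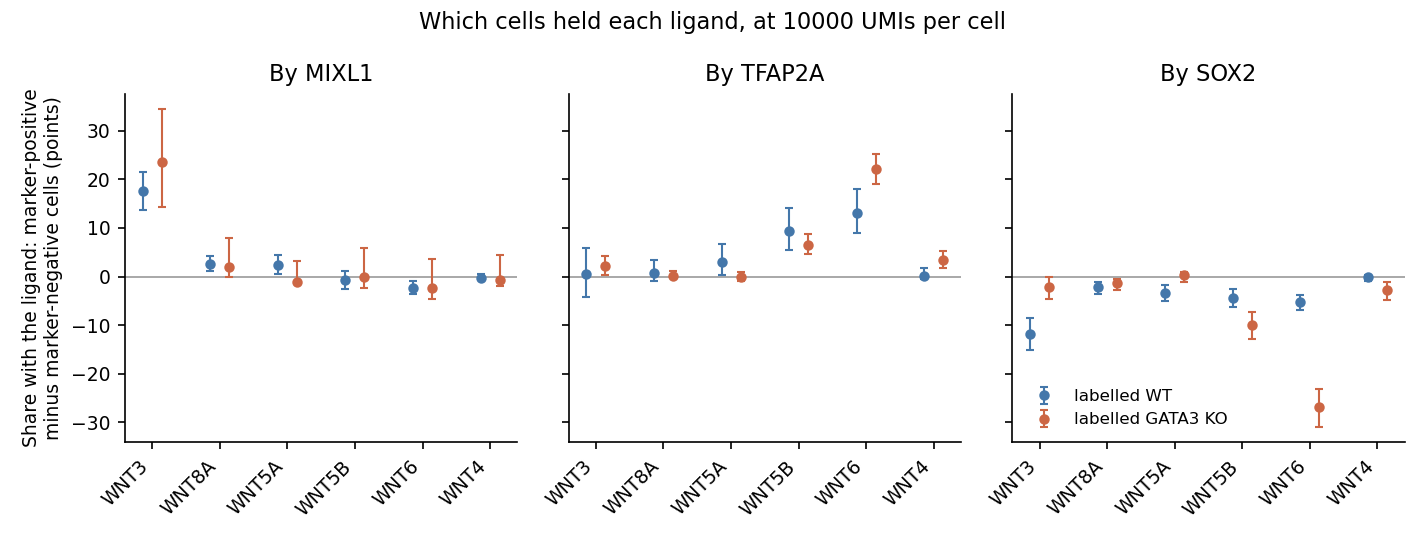
Share of thinned cells with a ligand in marker-positive cells minus that in marker-negative cells, in points, for 6 ligands and 3 markers, with 95% intervals; blue is WT and orange GATA3 KO. WNT3 is above 0 by MIXL1 in both libraries (17.6 and 23.6 points), WNT6 is above 0 by TFAP2A (13.1 and 22.0 points) and below 0 by SOX2 (-5.29 and -26.8 points).

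**Figure D3:**
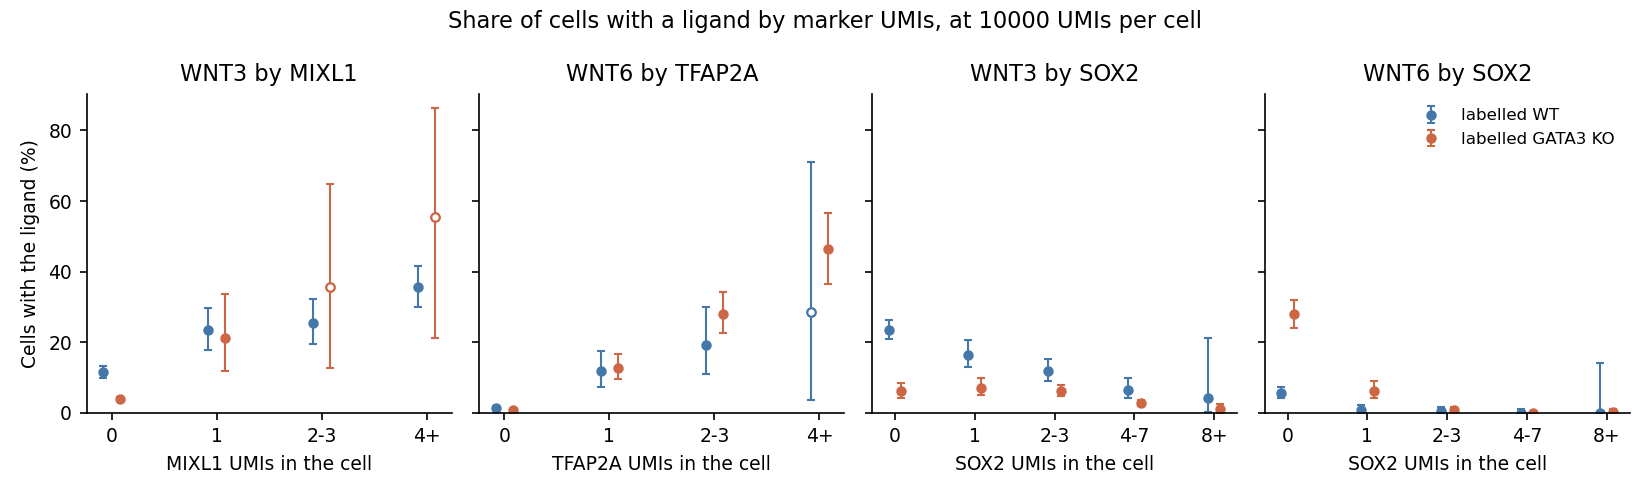
Share of cells with WNT3 or WNT6 (%) by the number of MIXL1, TFAP2A or SOX2 UMIs in a cell thinned to 10000 UMIs, with Clopper-Pearson 95% intervals; open points have fewer than 20 cells. WNT6 reaches 46.5% in GATA3 KO cells with 4 or more TFAP2A UMIs, and WNT3 reaches 35.7% in WT cells with 4 or more MIXL1 UMIs.

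To separate the mix of marker classes from the level within them, each thinned cell was put in 1 of 4 such classes, and its full counts were used for levels. The classes were MIXL1-positive cells, TFAP2A-positive cells without MIXL1, SOX2-positive cells without either, and cells with none of the 3. They made up 31.7%, 8.01%, 44.4% and 15.9% of WT cells and 2.08%, 17.6%, 75.6% and 4.68% of GATA3 KO cells. The class is a call on sparse counts and not a cell type. In WT cells, 59.3% of WNT3 UMIs and 72.2% of WNT8A UMIs came from MIXL1-positive cells, against 11.3% and 17.0% in GATA3 KO cells. For WNT6 the TFAP2A class gave 59.5% and 86.7% of its UMIs, and for WNT5B 36.1% and 66.4%.

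WNT3 was lower in GATA3 KO cells in each of the 4 classes. It was at 40.6 CPM (38.5 to 42.9) and 25.3 CPM (20.5 to 30.8) in MIXL1-positive cells, 18.7 and 7.41 CPM in the TFAP2A class, 9.73 CPM (8.82 to 10.7) and 3.52 CPM (3.21 to 3.86) in the SOX2 class, and 23.3 and 9.72 CPM in cells with none of the 3. The 84 MIXL1-positive GATA3 KO cells also held less MIXL1, 131 against 388 CPM, and its part in their lower WNT3 was not tested. In MIXL1-positive WT cells, WNT3 stood at 40.6 CPM beside 388 CPM of MIXL1, and in the SOX2 class at 9.73 CPM beside 7.49 CPM of MIXL1. These counts are not in 1 ratio over the classes, although MIXL1 in the SOX2 class is lowered by how the class was called.

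WNT5A showed its largest class difference in MIXL1-positive cells, with 6.36 CPM (5.53 to 7.29) in WT cells and 0.516 CPM (0.0625 to 1.86) in GATA3 KO cells, and was at 5.58 and 0.994 CPM in the TFAP2A class. In the SOX2 class it was at 2.01 CPM (1.61 to 2.47) and 0.962 CPM (0.802 to 1.15). WNT5A was thus spread unevenly over the classes in WT cells. Its 4 levels in GATA3 KO cells, from 0.512 to 0.994 CPM, had intervals that all met. Of these, the levels in MIXL1-positive cells and in cells with none of the 3 rest on 2 and 4 UMIs. An even spread of WNT5A is therefore not shown. WNT5B was highest in the TFAP2A class of both libraries, at 25.7 CPM (22.2 to 29.5) and 10.1 CPM (8.98 to 11.2).

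WNT6 was higher in GATA3 KO cells in the TFAP2A class, at 23.0 CPM (19.7 to 26.7) and 36.3 CPM (34.2 to 38.5), and in cells with none of the 3, at 5.38 CPM (4.26 to 6.70) and 15.5 CPM (12.8 to 18.5). The GATA3 KO cells of these classes also held more TFAP2A, 168 against 101 CPM in the TFAP2A class and 48.9 against 16.2 CPM in cells with none of the 3. Its part in their higher WNT6 was not tested. In the SOX2 class WNT6 was near its lowest in both libraries, at 0.369 CPM (0.211 to 0.599) and 0.367 CPM (0.270 to 0.486). At 10000 UMIs that is 0.415% and 0.0982% of SOX2-class cells with a WNT6 UMI, from cells of 47155 and 44779 UMIs at the median, against 20.7% and 23.1% in the TFAP2A class, whose medians were 44595.5 and 45070. WNT4 was higher in GATA3 KO cells in the TFAP2A class (1.46 and 4.01 CPM) and in the SOX2 class (0.853 and 1.99 CPM). WNT8A stood at 3.35 CPM (2.75 to 4.04) and 2.32 CPM (1.06 to 4.41) in MIXL1-positive cells, a difference within counting error.

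**Figure D4:**
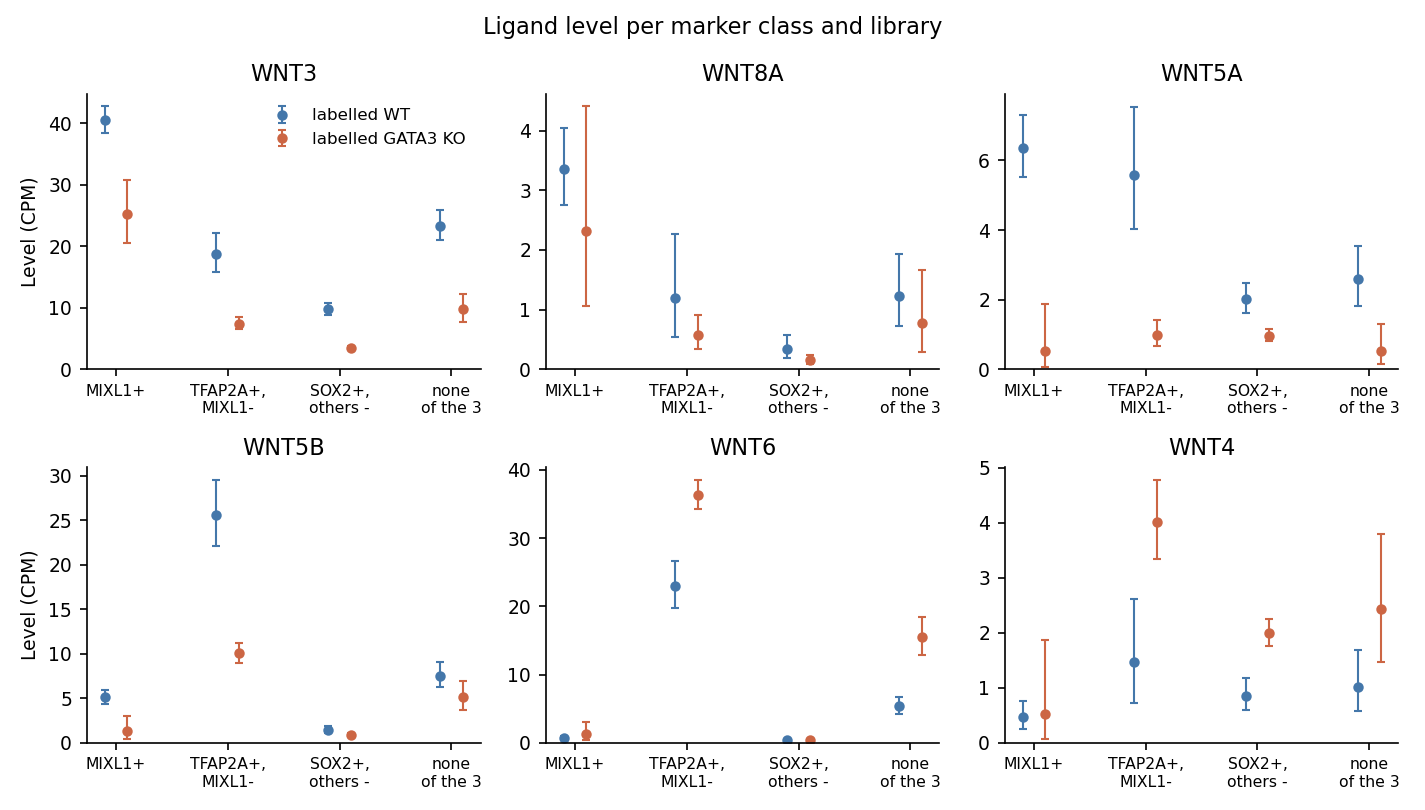
Level of 6 ligands in CPM in 4 marker classes, with exact Poisson 95% intervals; blue is WT and orange GATA3 KO, and each panel has its own axis from 0. WNT3 is lower in GATA3 KO cells in all 4 classes, and WNT6 is highest in the TFAP2A class (23.0 and 36.3 CPM). The intervals of WNT5A all meet over the classes in GATA3 KO cells but not in WT cells. In GATA3 KO cells its levels in MIXL1-positive cells and in cells with none of the 3 rest on 2 and 4 UMIs.

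The levels per class in WT cells were then weighted by the shares of UMIs that the 4 classes held in GATA3 KO cells (2.23%, 17.9%, 75.3% and 4.50%). This gives the level that WT cells would show at the other library's mix of these 4 classes, if levels within classes stayed the same. The classes still differed inside. In the SOX2 class MIXL1 was at 7.49 CPM in WT cells and 0.840 CPM in GATA3 KO cells. In cells with none of the 3 it was at 25.1 and 4.99 CPM. The parts called within classes can thus still hold differences in cell mix, whose size was not tested. WNT3 was 22.7 CPM as measured, 12.6 CPM at the mix of GATA3 KO cells, and 4.98 CPM in that library, so the log2 ratio of -1.99 split into -0.80 from the mix and -1.19 within classes. For WNT8A the order was 1.54, 0.605 and 0.305 CPM, with -0.66 from the mix and -0.30 within. For WNT5A it was 3.81, 2.77 and 0.938 CPM, with -0.35 and -0.96. By these values, for which no interval was computed, the class-mix part was smaller than the within-class part for WNT3 and WNT5A. For WNT8A it was larger, although as plain ratios of CPM its parts were 2.54-fold by the mix and 1.98-fold within classes. The reverse weighting, GATA3 KO class levels at the class mix of WT cells, was not computed. Which part is larger can depend on that choice, so the order of the parts is not settled.

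WNT5B was 5.45 CPM as measured, 6.17 CPM at the other mix and 2.72 CPM in GATA3 KO cells, so the mix alone would have placed it slightly higher (0.15) while the within-class part was -0.95. WNT6 went from 2.97 to 4.66 CPM by the mix (0.51) and to 7.52 CPM in GATA3 KO cells (0.59 within). Without the limit on detected genes the within-class part of WNT6 was 0.06. WNT4 was 0.795, 0.961 and 2.34 CPM, with 0.13 from the mix and 0.77 within. On the scale with 1 CPM added, 1 ligand, WNT3, was lower by at least 2-fold at equal mix, where 1.46% of 13516 genes were, and 0 were higher, where 1.39% were. Without the limit on detected genes 3 were lower (WNT3, WNT5A and WNT5B). As plain ratios of CPM, WNT5A was 2.95-fold and WNT5B 2.27-fold lower at equal mix, and WNT4 was 2.43-fold higher.

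**Figure D5:**
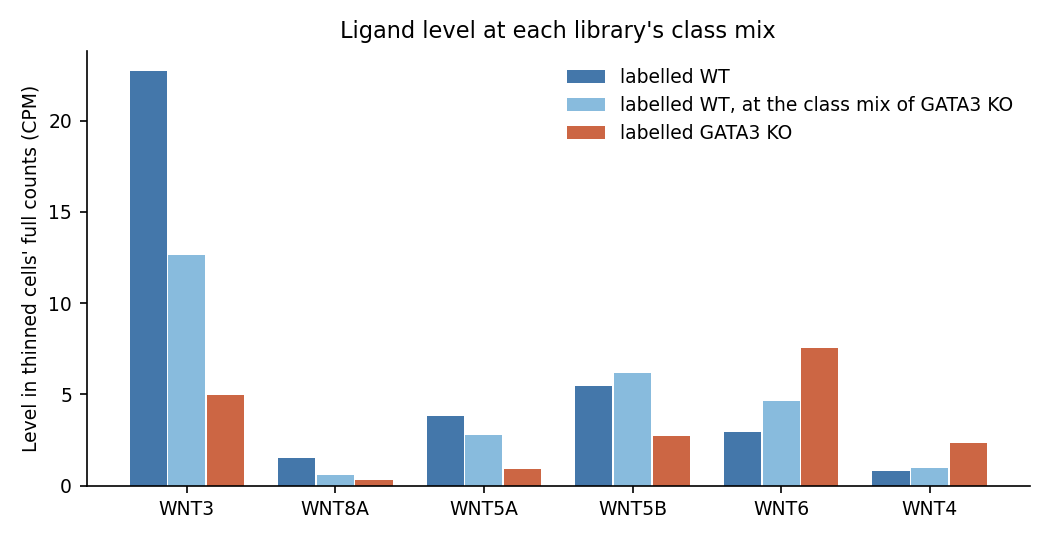
Bars from 0 give the CPM of 6 ligands in WT cells (dark blue), in that library weighted to the class mix of the other (light blue), and in GATA3 KO cells (orange); no error is drawn, as counting intervals stand with the class levels. The middle bar of WNT3 (12.6 CPM) lies between 22.7 and 4.98 CPM, and the middle bar of WNT5B (6.17 CPM) lies above both others.

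Which ligands shared a cell was counted over the 28 pairs. WNT5B and WNT6 were in the same thinned cell in 17 WT cells and 29 GATA3 KO cells, where the product of their shares gives 2.53 and 4.68 cells. Part of this comes with TFAP2A, since within TFAP2A-positive cells the numbers were 14 and 26 cells against products of 4.59 and 12.9. With the highest doublet scores removed 17 and 28 cells remained, and another thinning gave 16 and 30. WNT3 and WNT6 shared 3 WT cells against a product of 10.4, with 3 cells again in another thinning. In GATA3 KO cells they shared 2 cells against 8.06, but 7 in another thinning. The pairs WNT3 with WNT8A (15 and 5 WT cells in the 2 thinnings) and WNT4 with WNT6 (15 and 6 GATA3 KO cells) also changed with the thinning and are not described further.

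The genes whose transcripts were most raised in cells with a ligand were ranked for the 4 ligands found in at least 50 thinned WT cells. The measure was the log2 ratio of CPM plus 1 in cells with the ligand over cells without it, restricted to genes that reached 20 CPM in the former, and the same ratio in GATA3 KO cells was read for the genes so chosen. The ranks in WT cells were used for the choice and are descriptive.

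The 5 genes ranked highest in WT cells with WNT6 were also raised in GATA3 KO cells with WNT6, by less for some of them. HAND1, a transcription factor of extraembryonic and cardiac mesoderm, was at 237.7 CPM in the 61 WNT6-positive WT cells and 6.77 CPM in the rest (4.94), and at 161.5 and 4.52 CPM in the 187 positive and the other GATA3 KO cells (4.88). ISL1, a homeobox gene of amnion and cardiac progenitors, had ratios of 4.81 and 4.27, DIO3, an enzyme that inactivates thyroid hormone, 4.71 and 2.75, the natriuretic peptide gene NPPB 4.36 and 3.05, and the matrix gene SPARCL1 4.19 and 4.65. All 5 ratios in GATA3 KO cells were above 1.06, the 95th percentile over the 4684 genes ranked.

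The genes that went with WNT5B overlapped this set. NPPB had ratios of 4.04 in WT cells (90 positive cells) and 2.81 in GATA3 KO cells (101 cells), ANKRD1 3.70 and 3.16, ANXA1, an annexin, 3.41 and 2.82, POSTN, which encodes the matrix protein periostin, 3.25 and 2.88, and WNT6 itself 2.96 and 2.78. All of the values in GATA3 KO cells were above the 95th percentile of 0.65 over the 4942 genes ranked.

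For WNT5A, the genes ranked in WT cells could not be followed in GATA3 KO cells. In WT cells its 69 positive cells were raised in GRP (39.1 against 0.76 CPM), APLNR, the apelin receptor of mesoderm (34.8 against 1.09 CPM), MESP1, a transcription factor of nascent mesoderm (176.8 against 11.5 CPM), LZTS1 (30.4 against 1.71 CPM) and GATA6-AS1 (29.0 against 1.66 CPM). None of these 5 genes had a UMI in the 47 thinned WNT5A-positive GATA3 KO cells, which allows up to 6.38 CPM. These genes were scarce throughout that library, its WNT5A-negative cells holding between 0.0251 CPM of GATA6-AS1 and 2.18 CPM of LZTS1, so the comparison does not show which GATA3 KO cells held WNT5A.

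For WNT3 the ratios were smaller. In the 370 positive WT cells they were 1.59 for FGF17, 1.42 for CER1, a secreted antagonist of Nodal and BMP, 1.38 for MIXL1, 1.36 for DKK1, a secreted antagonist of WNT, and 1.32 for MESP1. In the 174 positive GATA3 KO cells the ratios of CER1 and MIXL1 were 2.82 and 3.33, from 9.20 against 0.44 CPM and 31.6 against 2.25 CPM. FGF17 and MESP1 had no UMI in those 174 cells, which allows up to 1.72 CPM, and DKK1 was at 1.15 against 1.29 CPM. The WNT3-negative GATA3 KO cells held only 0.155 CPM of FGF17 and 0.285 CPM of MESP1, under the limit of 1.72 CPM. The comparison therefore does not show whether FGF17 and MESP1 went with WNT3 in that library.

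The rest of the pathway was described from lists of its genes. Of 11 other WNT genes, only WNT2B reached 1 CPM, at 1.56 CPM (1.32 to 1.82) in WT cells and 0.713 CPM (0.594 to 0.85) in GATA3 KO cells, and the 11 together held 2.10 and 1.44 CPM. All 5 secretion genes reached 1 CPM and none was past 2-fold in either direction, from WLS at 56.2 and 33.3 CPM (-0.74) to PORCN at 4.25 and 6.87 CPM (0.58). Of 16 receptors, 0 were lower and 1 was higher by at least 2-fold, beside 2.27% and 2.06% of all genes tested. That one was FZD2, a Frizzled receptor, at 9.65 CPM (9.05 to 10.3) in WT cells and 31.7 CPM (30.8 to 32.5) in GATA3 KO cells, a log2 ratio of 1.62. The lowest ratio of the receptors was that of RYK, a receptor of the β-catenin-independent route, at 63.2 and 33.0 CPM (-0.92).

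Of 13 genes of the destruction complex and its nuclear partners, 2 were higher by at least 2-fold and 0 lower, beside 2.06% and 2.27% of all genes tested. TCF7L1, the LEF/TCF member best known as a repressor in stem cells, stood at 42 CPM (40.8 to 43.3) against 121 CPM (119.5 to 122.8), with a log2 ratio of 1.5, and LEF1 had the lowest ratio, at 2.48 and 0.776 CPM (-0.97). The second gene past 2-fold was TCF7L2 (47.1 and 98.3 CPM, 1.04), named after its values were seen. Of 8 feedback targets 7 reached 1 CPM and 2 were lower by at least 2-fold, beside 2.27% of all genes tested. SP5, a transcription factor induced by β-catenin, stood at 42.4 CPM (41.1 to 43.7) against 4.18 CPM (3.88 to 4.49), with a log2 ratio of -3.07, and DKK1 was at 12.1 and 1.35 CPM (-2.48). TNFRSF19 had the highest ratio, at 0.502 and 1.44 CPM (0.70). The log2 ratios of the other feedback targets that reached 1 CPM were -0.26 for AXIN2, -0.07 for ZNRF3, -0.48 for NKD1 and -0.48 for RNF43. The median log2 ratios of the secretion, receptor, destruction and nuclear, and feedback lists were -0.49, -0.11, 0.13 and -0.48, beside 0.07 over all 13523 genes.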

How the data were processed

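The authors prepared 10x Genomics 3′ v3 libraries from 1 culture labelled WT and 1 labelled GATA3 KO, and processed the reads with Cell Ranger 3.0.2 (submitters' processing notes) against its GRCh38 reference. The deposited values are raw UMI counts per gene and cell barcode for 3802 and 6221 cells, without limits on genes or mitochondrial share. These counts were used as deposited. Groups came from the deposited labels.

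Cells with over 7500 detected genes or over 25% mitochondrial counts were removed, after the limits in the methods of the study. The libraries share 8 cell barcodes. Scrublet (scanpy 1.11.5) called 1 and 2 doublets, too few for a caller that works, so none were removed by it, and removing the highest scores (0.8% for every 1000 cells) was an alternative. CPM is the summed count of a gene over the kept cells of a library per 1000000 UMIs of those cells. Log2 ratios used a pseudocount of 1 CPM, which understates changes of low genes. Genes of at least 1 CPM in either library entered counts past 2-fold, without mitochondrial genes being treated apart. Levels carry exact Poisson intervals, shares Clopper-Pearson intervals, ratios intervals from the exact binomial interval of both counts, and differences between shares intervals from both Clopper-Pearson intervals, all at 95%. A count of 0 was given the limit of 3 counts. UMIs remove PCR copies, and the intervals cover counting error only. Thinning drew 10000 UMIs per cell without replacement (seed 42). With 1 library per group there was no test and no p-value. The ratio, thinning, share and class-mix steps were tested on simulated data with known answers.

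The genes named were the 8 ligands, the genes with the highest and the lowest log2 ratio of each pathway list, and the 5 genes most raised in cells with a ligand. The remaining feedback targets of at least 1 CPM were named to complete that list. The ligands, markers and lists were chosen with earlier results of these data known. Positions came from GENCODE 44, and promoter windows from RefSeq (GRCh38.p14). TMM factors came from edgeR 4.0.16, used only as an alternative scaling. Other analysis used Python 3.11.15, NumPy 2.4.6 and SciPy 1.17.1.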

Additional observations from a re-analysis of the deposited data

Results flagged for a closer look

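The cells that the limits remove were not part of the comparisons, and WNT6 behaved differently in them. In these cells the ratio of WNT6 CPM labelled GATA3 KO to WT was 1.09 (0.98 to 1.20), from 688 and 807 UMIs, whereas it was 2.42 (2.14 to 2.75) in the cells kept. TFAP2A moved in the same way, with a ratio of 1.19 outside the limits (31.6 and 37.6 CPM) and 2.26 within them (16.7 and 37.7 CPM). Of the cells outside the limits, 1012 of 1283 WT and 1265 of 1771 GATA3 KO cells exceeded the limit on detected genes. Why WNT6 in the library labelled WT was higher outside the limits was not tested.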

How the results depend on the processing

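No paired analysis was possible because each group had 1 library, and no replicate could be left out. The number of ligands at least 2-fold lower with the GATA3 KO label was 2 (WNT3, WNT5A), where 2.27% of all genes tested were. It became 4 with a pseudocount of 0.1 CPM, which added WNT5B and WNT8A, where 3.99% of genes were. It was 3, with WNT5B added, without the limit on detected genes, over all deposited cells, with the mean of per-cell CPM and in the cells outside the limits. Between 2.31% and 2.51% of genes were lower in those settings. When 5 CPM was required it was 1 (WNT3), beside 2.09% of genes. The number at least 2-fold higher was 1 (WNT6). It became 0 without the limit on detected genes, over all deposited cells, with the mean of per-cell CPM, and in the cells outside the limits alone (an alternative chosen after seeing the data). Between 1.25% and 2.19% of genes were higher in those settings. With a pseudocount of 0.1 CPM it was 2, which added WNT4, where 4.02% of genes were higher. Across these alternatives the log2 ratio ranged from -2.20 to -1.88 for WNT3 and from 0.11 to 1.25 for WNT6. No ligand's log2 ratio changed sign in the 10 alternatives.

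The difference in the share of cells with any ligand was -9.06 points at 5000 UMIs, -20.6 at 20000, -28.1 without thinning and -2.27 with at least 2 UMIs of a ligand, as depth sets how many cells show a ligand UMI. Of the 24 ligand and marker pairs labelled WT, 10 were higher without thinning in place of 6. Labelled GATA3 KO, 3 were lower in place of 5 at 5000 UMIs, with another seed and with markers called without thinning. The ligands at least 2-fold lower at equal class mix numbered 3 without the limit on detected genes and over all cells, and 2 with markers called without thinning, in place of 1.

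Among marker differences whose reported interval excluded 0, 4 changed direction, all in GATA3 KO cells and with intervals that then included 0: WNT3 by TFAP2A with 2 UMIs required (-0.34 points), WNT3 by SOX2 with markers called without thinning (0.057 points), and at 5000 UMIs WNT4 by TFAP2A (-0.20 points) and by SOX2 (0.46 points). The cause of these changes was not tested. Where the reported interval included 0, the sign was not read, and 46 of 260 values over the alternatives had the other sign. Of 480 marker differences over the alternatives, 386 stayed within the reported interval and 90 moved beyond it in size, most of them with depth among the settings. Counts of 5 pairs of ligands in the same cell, chosen after seeing the data, moved beyond their interval in 3 of 20 cases.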
